A study of Mus musculus with 4 samples.

Results

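The secreted Wnt antagonists are proteins that cells release to hold back Wnt signals outside the cell. The set described here is named by gene symbol and holds 10 genes: Sfrp1, Sfrp2, Sfrp4, Frzb, Dkk1, Dkk2, Dkk3, Wif1, Sost and Sostdc1. Of these, 9 were found among the 19171 genes of the expression table, and Sost was not analysed here. RNA was measured in 4 libraries of primary mouse calvarial cells, which are released from skull bone with collagenase and contain bone-forming and other cells. The donors were 10-day-old C57BL/6 pups of the genotype mir17fl/fl:106b-/-, so that both groups lacked the miR-106b cluster and carried floxed alleles of the miR-17 cluster. The groups were 2 libraries infected with an adenovirus expressing Cre, the recombinase that deletes floxed DNA, and 2 infected with an adenovirus expressing YFP, a fluorescent protein. Cells were taken 3 days after infection, at a stated infection rate above 80%, so the cultures can still have held uninfected cells. The protein carried by the virus and the deletion differed together between the groups, and no Cre-infected cells lacking the floxed alleles were analysed here.

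Wnt proteins bind Frizzled receptors together with the co-receptors Lrp5 and Lrp6, and in the canonical branch this stabilises β-catenin, which turns on target genes in the nucleus. The antagonists act by different routes. The secreted Frizzled-related proteins (Sfrp1, Sfrp2, Sfrp4 and Frzb) carry a domain like that of the receptor and, like Wif1, bind Wnt proteins themselves. Dkk1, Dkk2, Sost and Sostdc1 bind the co-receptors instead, while Dkk3 is a divergent member of the Dickkopf family with no settled role at the co-receptors. In bone, canonical Wnt signals favour osteoblasts, and Sost and Dkk1 are known as brakes on bone formation.

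The deleted cluster encodes 6 miRNAs and the missing miR-106b cluster 3. The 9 mature sequences are shown because they define the sites searched for in the antagonists, with the seed, bases 2 to 8, in capitals (RefSeq, GRCm38.p6; chromosome 14, plus strand, for the deleted cluster, and chromosome 5, minus strand, for the other). They fall into 4 seed families, and the missing cluster shares the miR-17 and miR-92 seeds.
miR-17-5p: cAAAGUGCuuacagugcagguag
miR-20a-5p: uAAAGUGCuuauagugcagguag
miR-106b-5p: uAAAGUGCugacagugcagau
miR-93-5p: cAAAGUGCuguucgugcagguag
miR-18a-5p: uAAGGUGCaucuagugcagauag
miR-19a-3p: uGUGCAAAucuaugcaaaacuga
miR-19b-3p: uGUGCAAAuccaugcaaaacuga
miR-92a-3p: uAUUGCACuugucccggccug
miR-25-3p: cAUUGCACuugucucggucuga

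A 7-base match to a seed was looked for on the transcript strand of the longest annotated 3′ UTR of each gene (GENCODE M21, GRCm38). The letters searched were GCACTTT for the miR-17 family, GCACCTT for miR-18, TTTGCAC for miR-19 and GTGCAAT for miR-92. Of the 10 antagonists, 3 held a match, and the other 7 did not. Among 10962 tested genes with an annotated 3′ UTR, 35.8% held a match to at least 1 family, 15.4% to miR-17, 10.2% to miR-18, 14.4% to miR-19 and 7.86% to miR-92. Of the 7 sites in the antagonists, the Dkk2 and Dkk3 sites and the extended Sfrp4 sites, those followed by an A, are printed with the match in capitals and numbered from the first base after the stop codon.
Dkk2, miR-92 family, bases 799 to 805: agccattaatcatGTGCAATacaagcacag
Dkk2, miR-92 family, bases 1149 to 1155: gcaggtaagctggGTGCAATgcagcctgcc
Dkk3, miR-92 family, bases 30 to 36: gtcactggtagatGTGCAATagaaatggct
Sfrp4, miR-17 family, bases 1165 to 1171: atcagtgttctggGCACTTTagtgggtcac
Sfrp4, miR-19 family, bases 1627 to 1633: gtgttgagactttTTTGCACacagagcact

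Dkk2 held 2 miR-92 matches in a 3′ UTR of 2184 nt, the upstream one followed by an A, the extended form of a site. Dkk3 held 1, also followed by an A, in a 3′ UTR of 2194 nt. Sfrp4 held 3 miR-17 matches, of which those at bases 1325 to 1331 and 1639 to 1645 are not printed, and 1 miR-19 match, but only in a transcript with a 3′ UTR of 2622 nt. The shorter Sfrp4 transcript that pairs with the identifier in the expression table has a 3′ UTR of 450 nt with 0 matches. Sfrp1, with the longest 3′ UTR of the set at 3144 nt, held 0, as did Sfrp2 at 894 nt and Wif1 at 771 nt. A match is a description of letters and not a measured binding site.

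With Cre, the co-receptor antagonist gene Dkk2 fell to 0.627 of its YFP mean, the Wnt-binding Sfrp2 to 0.746, Wif1 to 0.724 and Dkk3 to 0.88, while Sfrp1 rose 1.22-fold. Sfrp4 and Frzb passed no test. Dkk1 and Sostdc1 were expressed below the filter of 1 FPKM in at least 2 libraries. Of the 7 antagonists that passed that filter, 1 rose and 4 fell, or 5 in all, beside 16.6%, 16.3% and 32.9% of all 12046 tested genes in the same comparison (limma, adjusted p under 0.05). Their median log2 change was -0.18, and that of all tested genes was -0.01. Without Cre replicate 2 the count that fell was 2, Sfrp2 and Dkk2, without Cre replicate 1 the count that rose was 0, and the 3961 calls over all genes became 1872 and 2384. Wif1 passed the filter only through its YFP libraries, so its difference and the filter are not independent. FPKM is the authors' read number per length of transcript and scaled to the mapped reads of the library, changes are differences of log2(FPKM + 1), and in such bulk RNA fewer cells of a type and less RNA per cell cannot be told apart.

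Expression levels, which FPKM makes comparable between genes of different length, spanned a wide range. Dkk3 was the most abundant antagonist in each library and held 61.2% to 63.5% of the summed antagonist FPKM. The order with YFP was Dkk3, Sfrp1, Sfrp2, Dkk2, Frzb, Sfrp4, Wif1, Sostdc1 and Dkk1, and the values of no neighbouring pair overlapped. With Cre the same order held by mean, but Dkk2 and Frzb then overlapped. The summed antagonist FPKM was 139.2 and 136.5 with YFP and 129.1 and 121.8 with Cre. Sfrp1, Sfrp2, Sfrp4 and Frzb together gave 43.1 and 42.0 FPKM with YFP and 44.3 and 41.5 with Cre, sums that overlapped between the groups.

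**Figure D1:**
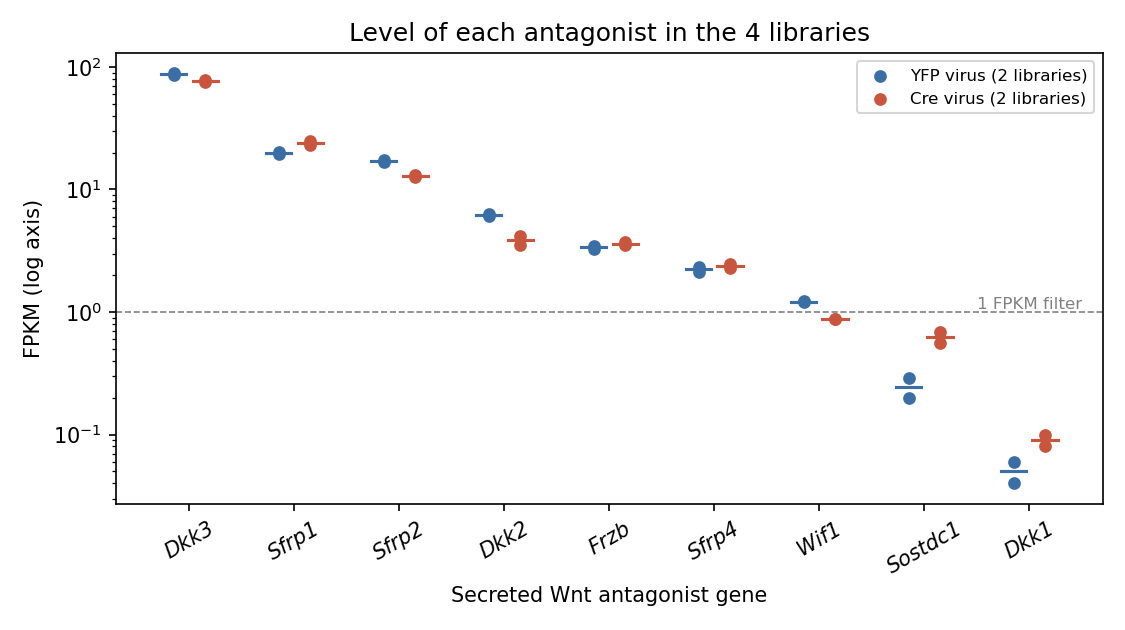
FPKM on a log axis for the 9 antagonists with a value, 2 libraries per group, with points for libraries and a bar at each group mean. Dkk3 lies highest at 75.21 to 88.45 FPKM, Dkk2 drops to the level of Frzb with Cre, and Sostdc1 and Dkk1 stay below the dashed line at 1 FPKM.

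Among the Frizzled-related genes, Sfrp1 (Entrez 20377) was 20.19 and 19.36 FPKM in YFP replicates 1 and 2 and 24.99 and 23.11 in Cre replicates 1 and 2. Both Cre values lay above both YFP values, and groups without overlap, in either direction, were found for 66.9% of all tested genes. The mean rose from 19.77 ± 0.587 (SD, n = 2) to 24.05 ± 1.33, a log2 change of 0.27 (SE 0.05, 95% interval 0.15 to 0.39, limma adjusted p = 0.00342). Leaving out Cre replicate 1 ended the call, and the change was then 0.22 (limma adjusted p = 0.0613). Sfrp1 is widely expressed in mesenchymal cells, and its loss raises trabecular bone in mice.

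Sfrp2 (Entrez 20319), a close relative of Sfrp1 made by many fibroblasts and mesenchymal cells, went the other way. It was 17.55 and 16.90 FPKM with YFP and 13.12 and 12.58 with Cre. The groups were well apart, each with a narrow spread (SD 0.46 and 0.382, n = 2). It fell by 0.40 on the log2 scale (SE 0.05, 95% interval -0.51 to -0.28, limma adjusted p = 2.82e-04), and only 3.1% of tested genes had a lower log2 change. Within each library the ratio of Sfrp1 to Sfrp2 FPKM, which no scaling of the library can alter, was 1.15 and 1.15 with YFP and 1.90 and 1.84 with Cre.

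Frzb (Entrez 20378), also called Sfrp3 and known from cartilage, was 3.27 and 3.46 FPKM with YFP and 3.70 and 3.51 with Cre. Although the groups did not overlap, which held for 66.9% of all tested genes, the log2 change of 0.08 did not pass (SE 0.07, 95% interval -0.08 to 0.23, limma adjusted p = 0.436). Sfrp4 (Entrez 20379), whose loss thins cortical bone in mice and humans, was 2.12 and 2.33 FPKM with YFP and 2.46 and 2.29 with Cre, so its groups overlapped. Its log2 change was 0.07 (SE 0.08, 95% interval -0.10 to 0.24, limma adjusted p = 0.555). The intervals of both genes leave room for changes in either direction. The identifier listed for Sfrp4 pairs with the shorter transcript, whose 3′ UTR holds none of the sites printed above. Whether RNA of the longer transcript also counted toward the Sfrp4 values is not known.

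Wif1 (Entrez 24117), Wnt inhibitory factor, was 1.22 and 1.21 FPKM with YFP and 0.88 and 0.88 with Cre. The replicates differed little within groups, but the gene lies near the filter, where only 1.58% of tested genes had a lower mean FPKM. Its log2 change was -0.24 (SE 0.08, 95% interval -0.42 to -0.06, limma adjusted p = 0.0464). The call was lost without any one of the 4 libraries (limma adjusted p = 0.122 to 0.177), with median-of-ratios scaling (0.0511), with no filter (0.0563) and with the replicate number as a block (0.0685).

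In the Dickkopf family, Dkk2 (Entrez 56811), a ligand of Lrp5 and Lrp6 that mice need for late osteoblast maturation, was 6.06 and 6.27 FPKM with YFP and 4.18 and 3.55 with Cre. Both Cre libraries were below both YFP libraries, beside 66.9% of all tested genes without overlap in either direction. The mean went from 6.165 ± 0.148 to 3.865 ± 0.445 (SD, n = 2), a log2 change of -0.56 (SE 0.08, 95% interval -0.73 to -0.39, limma adjusted p = 2.88e-04). This was the largest fall among the tested antagonists, and 0.897% of tested genes had a lower log2 change. In each alternative run, including those without 1 library, the call held, with log2 changes from -0.66 to -0.47.

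Dkk3 (Entrez 50781) was 88.45 and 86.70 FPKM with YFP and 78.99 and 75.21 with Cre, again without overlap, which held for 66.9% of all tested genes. At this level, with 92.3% of tested genes below it in mean FPKM, the fall was small in proportion, with a log2 change of -0.18 (SE 0.05, 95% interval -0.28 to -0.08, limma adjusted p = 0.0116). Without Cre replicate 2 it was -0.15 and not past the threshold (limma adjusted p = 0.148). In FPKM, however, Dkk3 went from 87.58 ± 1.24 to 77.1 ± 2.67 (SD, n = 2), the largest difference in the set. The ratio of Dkk3 to Dkk2 FPKM was 14.6 and 13.8 with YFP and 18.9 and 21.2 with Cre. Dkk2 and Dkk3, the only Dickkopf members tested, both hold the miR-92 matches printed above. A bearing of those matches on their levels was not tested.

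Dkk1 (Entrez 13380), the best known Dickkopf brake on bone formation, was barely detected, at 0.04 and 0.06 FPKM with YFP and 0.08 and 0.10 with Cre. In the fit with no filter its log2 change was 0.05 (SE 0.03, limma adjusted p = 0.263). At the planned 30 M reads and a transcript of 2427 nt, 1 read would be worth about 0.014 FPKM, so these values rest on few reads, and the real depth is unknown. The groups did not overlap, with a ratio of means of 1.8, but the difference did not pass the test. How many genes below the filter, such as Dkk1 and Sostdc1, had groups without overlap was not counted.

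Sostdc1 (Entrez 66042), a relative of Sost that binds both BMPs and the Wnt co-receptors and is known from tooth and kidney, was 0.29 and 0.20 FPKM with YFP and 0.69 and 0.56 with Cre. The 2 groups did not overlap, and the ratio of means was 2.55. Having stayed below the filter, it was tested only in the fit with no filter, where the log2 change was 0.38 (SE 0.07, 95% interval 0.21 to 0.56, limma adjusted p = 0.0169), beside 17.7% of 19171 genes called there. The log2(FPKM + 1) scale understates the change of so low a gene.

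**Figure D2:**
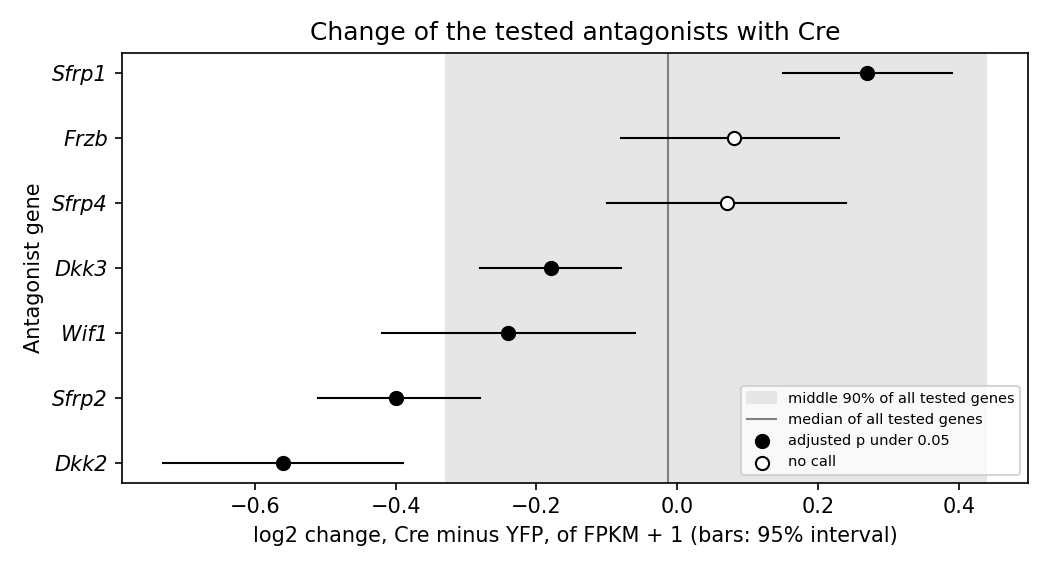
Log2 change (Cre minus YFP, of FPKM + 1) of the 7 tested antagonists with 95% intervals, filled where the adjusted p was under 0.05. Dkk2 at -0.56 and Sfrp2 at -0.40 lie outside the middle 90% of all tested genes (grey, -0.33 to 0.44), while Sfrp1, Dkk3 and Wif1 lie within it.

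The membrane partners that present or anchor the co-receptor antagonists, Kremen1 and Lrp4, did not pass the test. Kremen1, a receptor that binds Dkk1 and Dkk2 together with Lrp6, was 12.87 and 10.56 FPKM with YFP and 11.49 and 11.35 with Cre (log2 change -0.03, limma adjusted p = 0.824). Lrp4, which anchors Sost on bone cells, was 1.55 and 1.55 FPKM with YFP and 1.28 and 1.38 with Cre (log2 change -0.13, limma adjusted p = 0.237). Kremen2 stayed below the filter. The co-receptor gene Lrp6 itself, named here after its value was seen, was 12.25 and 12.34 FPKM with YFP and 10.91 and 10.30 with Cre. Its log2 change of -0.20 passed with all libraries (limma adjusted p = 0.0197) but not without Cre replicate 1 (0.0528) or Cre replicate 2 (0.17).

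Other inhibitors that act outside the cell or at its surface did not share one direction. Of 14 such genes, 7 were tested, of which 3 rose and 1 fell, beside 16.6% and 16.3% of all tested genes. The median of the 7 log2 changes was 0.21. Notum, an enzyme that strips the lipid from Wnt proteins, was 1.20 and 0.88 FPKM with YFP and 2.23 and 3.30 with Cre (log2 change 0.87, limma adjusted p = 0.00492). It needed a Cre library to pass the filter, so its rise and the filter are not independent. Apcdd1, a membrane inhibitor, rose from 3.195 ± 0.262 to 5.045 ± 0.0778 FPKM (SD, n = 2), a log2 change of 0.53 (limma adjusted p = 2.96e-04). Both are also known as genes that β-catenin turns on. Cthrc1, a secreted protein that in mice favours the planar polarity branch over the β-catenin branch, fell from 93.03 ± 2.92 to 62.71 ± 1.4 FPKM, a log2 change of -0.56 (limma adjusted p = 1.19e-05).

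Target and feedback genes of β-catenin, a list chosen like the other lists with earlier results of these data known, were mostly higher with Cre. Of 9, 8 were tested, 5 rose and 1 fell, beside 16.6% and 16.3% of all tested genes. Of the 5, Lef1 (0.76 and 0.94 FPKM with YFP, 1.63 and 1.62 with Cre) passed the filter only through its Cre libraries. The median of their log2 changes was 0.40, beside -0.01 for all tested genes. Axin2, a scaffold of the β-catenin destruction complex and a standard readout of canonical signalling, was 3.76 and 3.84 FPKM with YFP and 7.24 and 6.75 with Cre (log2 change 0.74, SE 0.07, limma adjusted p = 1.97e-05). Nkd2, an inhibitor inside the cell, went from 23.2 ± 0.106 to 32.84 ± 0.396 FPKM (SD, n = 2), a log2 change of 0.48 (limma adjusted p = 2.86e-05). Ccnd1, the gene for cyclin D1, rose by 0.37 (limma adjusted p = 1.24e-04). The 1 gene that fell was Wisp1, a matricellular gene, with a log2 change of -0.29 (limma adjusted p = 7.82e-04), named here after its value was seen. Whether the lower Dkk2, Sfrp2, Dkk3 and Wif1 bear on these genes was not tested.

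Transcripts of the Wnt ligands and receptors also changed unevenly. Of 19 Wnt ligand genes, 9 were tested, 5 rose and 3 fell, beside 16.6% and 16.3% of all tested genes, and the median log2 change was 0.34. Of these 8 calls, Wnt5b and Wnt10b passed the filter only through their YFP libraries and Wnt11 only through its Cre libraries, so those differences and the filter are not independent. Wnt4 was 1.51 and 1.38 FPKM with YFP and 3.43 and 3.53 with Cre (log2 change 0.87, limma adjusted p = 1.56e-05), and Wnt9a rose by 0.46 (limma adjusted p = 6.45e-04). Wnt16, a ligand known for protecting cortical bone, was 2.93 and 2.34 FPKM with YFP and 1.22 and 1.15 with Cre (log2 change -0.73, limma adjusted p = 1.80e-04). Of 15 receptor genes, 13 were tested, 1 rose and 4 fell, a share of calls near the 32.9% of all tested genes, and the median log2 change was -0.14. The co-receptor gene Lrp5 was the 1 that rose, by 0.29 (limma adjusted p = 0.00623), which did not pass without Cre replicate 1 or 2 (limma adjusted p = 0.0613 and 0.0623). Fzd5 had a log2 change of -0.43 (limma adjusted p = 9.73e-04). Fzd8 had one of -0.24 (limma adjusted p = 0.018), which did not pass without YFP replicate 1 (0.0616) and without Cre replicate 2 (0.161).

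R-spondins, secreted proteins that strengthen Wnt signals by sparing the Wnt receptors from degradation, and their receptors were mostly lower. Of the 7 genes for R-spondins and their Lgr receptors, 5 were tested, 4 fell and 1 rose, beside 16.3% and 16.6% of all tested genes, and the median log2 change was -0.58. Rspo2 was 5.32 and 4.97 FPKM with YFP and 2.53 and 2.61 with Cre (log2 change -0.78, limma adjusted p = 1.90e-05). Rspo3 was 6.68 and 6.71 with YFP and 4.12 and 4.06 with Cre (log2 change -0.60, limma adjusted p = 5.69e-05). The receptor gene Lgr6 went the other way, from 0.495 ± 0.0212 to 1.54 ± 0.0707 FPKM (SD, n = 2), a log2 change of 0.76 (limma adjusted p = 7.51e-05), and it passed the filter only through its Cre libraries.

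**Figure D3:**
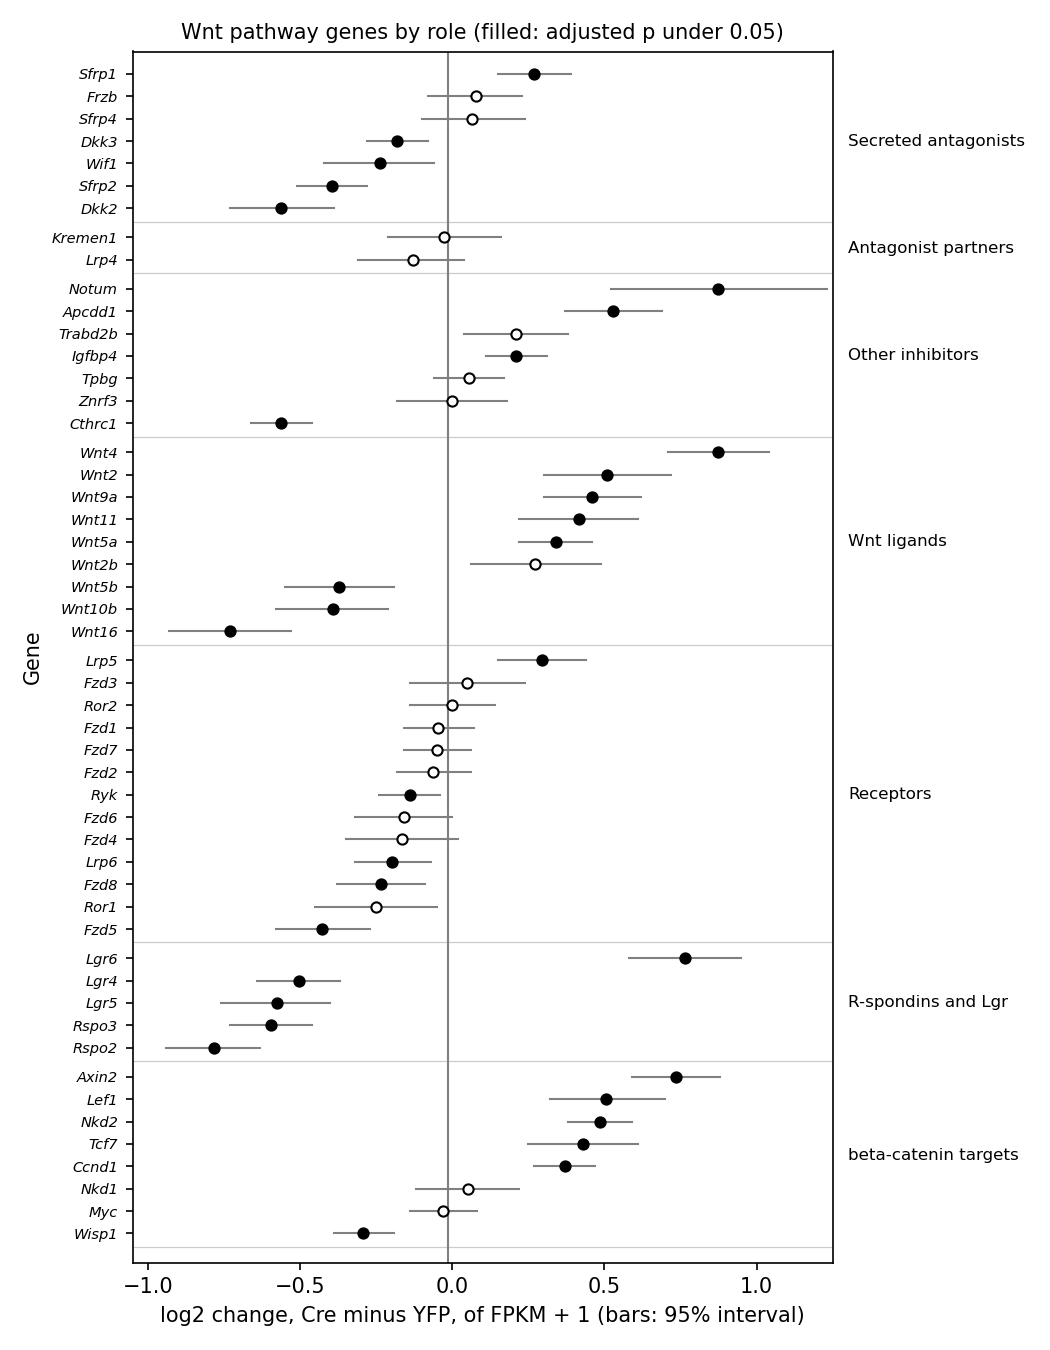
Log2 change (Cre minus YFP, of FPKM + 1) with 95% intervals for each tested gene of the Wnt lists, by role, filled where the adjusted p was under 0.05. The antagonists lie on both sides of the median of all tested genes (grey line), 5 of 8 β-catenin targets lie above it with a call, and Rspo2, Rspo3, Lgr4 and Lgr5 lie below it with a call.

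Genes with the most similar pattern over the 4 libraries were sought among 8139 named genes with a mean of at least 5 FPKM, by the root mean square difference of log2 values centred on each gene's mean. Nearest to Sfrp1 were Traf3 (0.00937), Dtnb (0.0142) and Rnaset2a (0.0152), where Traf3 was 4.62 and 4.44 FPKM with YFP and 5.83 and 5.35 with Cre. Nearest to Dkk2 were Adh7 (0.0214), Cdkn3 (0.0222) and Aldh1l2 (0.0239), where Adh7 was 12.87 and 13.30 FPKM with YFP and 8.86 and 7.71 with Cre. With 4 libraries in 2 groups, this likeness mostly restates the size and direction of the group difference.

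The libraries summed to 458756 to 471021 FPKM over all genes, with 17445 and 17452 genes above 0 with YFP and 17891 and 17952 with Cre. Mir17hg, the host transcript of the deleted cluster, was 3.29 and 3.91 FPKM with YFP and 7.35 and 8.49 with Cre (log2 change 0.96, limma adjusted p = 3.62e-05). In RefSeq, its transcript begins downstream of 5 of the 6 mature miRNAs, so its level does not check the deletion. Mcm7, the host gene of the miR-106b cluster, was 36.78 and 34.82 FPKM with YFP and 30.36 and 32.81 with Cre. Early osteoblast genes were present in all libraries, with Runx2 at 10.28 to 12.11 FPKM and Col1a1 at 1683.87 to 1778.23 FPKM. Sp7 and Alpl were near the filter, at 1.81 to 2.43 and 1.53 to 2.49 FPKM. Of 9 osteoblast markers 6 were tested, and 1 rose and 1 fell, beside 16.6% and 16.3% of all tested genes. The 1 that fell was Col1a2, with a log2 change of -0.29 (limma adjusted p = 0.00218). Among markers of mature bone cells, Spp1 was abundant at 3125.89 to 3919.16 FPKM, and Pdpn, the only osteocyte marker tested, was at 172.75 to 289.73 FPKM. Both were called higher with Cre (log2 changes 0.29 and 0.65). Others were low, with Ibsp at 0.39 to 0.63 FPKM, Dmp1 at 0.10 to 0.26 FPKM, and Bglap, which has near-identical copies, listed at 0 in both YFP libraries and at 1.27 and 0.91 with Cre.

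Markers of other cell types are given beside the antagonists, and their part in these results was not tested. Their counts are to be read against all tested genes, of which 16.6% were called higher, 16.3% lower and 32.9% in all. Of 7 fibroblast and periosteal markers, all tested, 5 fell and 1 rose, and their sum was 1394 and 1466 FPKM with YFP and 1264 and 1246 with Cre. The 4 tendon markers, of which 2 fell, summed to 123.8 and 128.8 with YFP and 66.15 and 64.4 with Cre. Nearly all of that difference was Tnmd, at 99.11 and 104.55 FPKM with YFP and 42.48 and 41.10 with Cre, while Scx (log2 change 0.00) and Mkx (0.07) did not pass. Of 8 macrophage markers with a value, 6 were tested and 4 rose. The 8 summed to 97.46 and 95.27 with YFP and 126.1 and 133.6 with Cre, with the leukocyte gene Ptprc at 0.27 to 0.37 FPKM. These sums were mostly Lyz2, at 79.81 and 75.07 FPKM with YFP and 99.07 and 104.77 with Cre. All 3 tested of 7 epithelial markers rose, with sums of 11.88 and 11.55 with YFP and 22.67 and 25.44 with Cre. Most of that rise was Krt18, at 0.96 and 0.91 FPKM with YFP and 8.54 and 9.38 with Cre, which passed the filter only through its Cre libraries. Krt8, at 0.96 and 1.15 FPKM with YFP and 1.45 and 1.61 with Cre, also needed a Cre library to pass it. All 5 tested of 6 neural and glial markers rose, with sums of 59.24 and 59.18 with YFP and 74.58 and 77.17 with Cre. Of 6 smooth muscle markers 2 fell and 0 rose, a share of calls near the 32.9% of all tested genes. Their sums of 3504 and 3382 with YFP and 2944 and 3003 with Cre were mostly Acta2. Of 6 chondrocyte markers 5 were tested and 2 fell, with sums of 130.7 and 121.5 with YFP and 114.1 and 116.1 with Cre. These sums were mostly Col2a1, at 112.48 and 103.89 FPKM with YFP and 97.51 and 99.26 with Cre, which did not pass (limma adjusted p = 0.0597). Of the 2 that fell, Col9a1 (1.33 and 1.28 FPKM with YFP, 0.80 and 0.81 with Cre) passed the filter only through its YFP libraries. No endothelial marker passed, with 2 of 6 tested, and none of the markers with a value was at 0 in all 4 libraries.

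**Figure D4:**
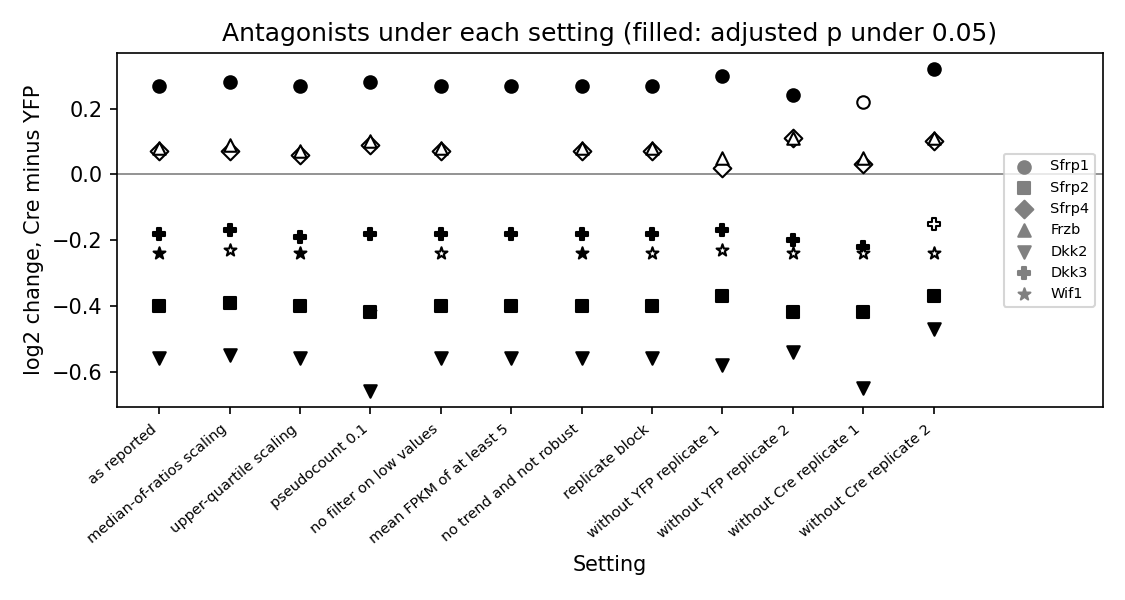
Log2 change (Cre minus YFP) of the tested antagonists as reported and under 11 alternatives (10 for Sfrp4, Frzb and Wif1), filled where the adjusted p was under 0.05. Signs never changed, and Dkk2 and Sfrp2 were called throughout. Sfrp1 and Dkk3 each missed the threshold in 1 alternative without a Cre library, and Wif1 missed it in 7 of 10.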

How the data were processed

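The authors deposited 1 table of FPKM per gene, with 1 column per library and values to 2 decimals. Per the submitters' processing notes, the tool Bowtie 02.2.5 and the build mm8 belong to the processing, with no role given. Which program and annotation gave the FPKM values, and whether strand was used, is not given in the sources used here. Columns were tied to samples by the number in each column name. Depth is unknown, so no counting intervals are given. Genes at 1 FPKM or more in at least 2 libraries were compared as log2(FPKM + 1) with limma 3.58.1 (R 4.3.3; trend, robust), two-sided, with Benjamini-Hochberg adjustment over 12046 genes. The fit was tested on simulated data with far fewer changed genes than were called here. False calls there made up more than the nominal share, and their share among the calls here is unknown. Separate cultures or animals behind the 2 libraries of a group are not stated, so the p-values may reflect technical spread only. Members and lists were chosen with earlier results of these data known. Beside all members and the host genes Mir17hg and Mcm7, the rule names up to 3 called genes per Wnt list by smallest p, and the 3 genes nearest in pattern to the member with the largest rise and the largest fall. Seed matches used GENCODE M21 on GRCm38, another build than mm8, so no gene coordinates are given.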

Additional observations from a re-analysis of the deposited data

How the results depend on the processing

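The signs of all 7 tested antagonists held under every alternative run: 2 other scalings, a pseudocount of 0.1, no filter, a mean FPKM of at least 5 (where Sfrp4, Frzb and Wif1 were not tested), no trend and robust steps, the replicate block, and each library left out. The count of antagonists higher with Cre was 2 with no filter, where Sostdc1 joined Sfrp1, and 0 to 1 with 1 library left out. The count lower with Cre was 2 to 3 with 1 library left out, and 2, Sfrp2 and Dkk2, without Cre replicate 2. Over all genes the count of 3961 became 1872 to 3560 with 1 library left out, with 1872 without Cre replicate 2 and 2384 without Cre replicate 1; a fit without 1 library assumes that the lone library of its group varies like the others. With the replicate block it was 3533, and Wif1 (adjusted p = 0.0685) was the only antagonist whose call changed. Whether same-numbered libraries were paired is not stated in the labels. Their deviations from the group means correlated at -0.0313, a single value because 2 libraries per group deviate as mirror images. Such a value cannot settle whether same-numbered libraries came from a shared culture or animal. The call of Mcm7 (adjusted p = 0.0265) was lost with no filter (0.0779), without trend and robust steps (0.0784), and without YFP replicate 1 (0.103), Cre replicate 1 (0.238) or Cre replicate 2 (0.056). The split of calls over all genes, 1998 higher and 1963 lower, was 1960 and 1439 with no filter. The causes of these changes were not tested. Unknown depth limits what can be said of Dkk1 and Sostdc1.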
